A study of Mus musculus with 8 samples.

Results

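Kupffer cell and macrophage markers are described here in whole livers of female F1-TKm30 mice. The genes were chosen by name: 34 markers, of which 10 mark resident Kupffer cells, 13 mark recruited or activated macrophages and 11 mark myeloid cells in general. Of these, 33 have a row among the 15210 genes of the deposited table, and Chil3, a recruited-macrophage marker, was not analysed here. MOCA mice (n = 4) were given MOCA, 4,4'-methylenebis(2-chlorobenzenamine), a chlorinated aromatic amine with which polyurethane is hardened, at a level of 0.05% over 4 weeks by a route the labels do not name, and the control mice (n = 4) were given 0%. All 8 mice are on the NOG background and carry the cDNA of a herpes simplex virus thymidine kinase mutant (clone 30), driven by the enhancer and promoter of the mouse transthyretin gene, so that its expression is aimed at hepatocytes. They were 17 or 21 weeks old, with no label that ties an age to a mouse, and the labels' treatment text names C57BL mice where the strain label names F1-TKm30.

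Kupffer cells are the resident macrophages of the liver sinusoids, where they clear particles, bacteria and aged red cells from portal blood. In mice they are seeded before birth and renew themselves in place under signals from endothelial, stellate and liver cells, with the receptor Csf1r and the transcription factor PU.1 (Spi1) required across the lineage. When they are lost or the liver is injured, monocytes that carry Ccr2 and Ly6c enter and take on macrophage states of their own. NOG mice lack mature T, B and NK cells but keep Kupffer cells and other myeloid cells, whose functions are partly impaired.

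The design sets livers of MOCA mice against those of control mice. Of the 10 resident markers, 9 were above 3 TMM-scaled CPM in every mouse and Spic was at 0.600 to 1.80. By contrast, 8 of 12 recruited or activated markers were below the testing filter. None of the 25 members that could be tested was called in MOCA against control livers, beside 0.666% of all genes tested. Values also differed between mice of the same group. MOCA mouse 4 had the highest MOCA value for 9 of 10 resident markers, and control mouse 1 the highest control value for all 10. In whole tissue, fewer cells of a type and less RNA per cell cannot be told apart.

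Total depth was 15024945 to 15970453 reads in MOCA libraries and 16077424 to 17101844 reads in control libraries, so every MOCA library was shallower than every control library. Values are TMM-scaled CPM, which are reads scaled by the authors to library size and composition, and 1 read was worth 0.0581 to 0.0648. Each fold change is that of MOCA over control livers, taken on log2(value + 1), and is too small for genes of low level. Genes were tested where 4 or more libraries reached a value of 1, and a call needed a Benjamini-Hochberg adjusted p under 0.05 from limma over all 12008 genes tested; 80 genes, or 0.666% of those tested, were called.

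PU.1, a factor that myeloid cells require, binds a purine-rich core, GAGGAA, and promoter sequence is shown for the 4 resident markers that hold it and for Clec4f, the highest marker per kilobase, which does not. The RefSeq table (GRCm38.p6, the assembly called mm10) held promoters for 29 of the 33 members, and 12 of the 29 had this core on either strand within 250 bases before the start. These were 4 of 9 resident markers (Timd4, Cd163, Folr2, Spic and Clec4f had no match), 4 of 12 recruited and 4 of 8 general ones. Over the table, 25.9% of 27025 genes and 23.3% of 32851 promoters had it. Each sequence below is the 250 bases before the start on the gene's own strand, in lower case, with matches in capitals (TTCCTC is the core on the other strand). They lie at chr6:83656117-83656366 (minus strand), chrX:96293439-96293688 (minus), chr3:87357631-87357880 (plus), chr1:120505025-120505274 (minus) and chr2:14229164-14229413 (plus).
Clec4f: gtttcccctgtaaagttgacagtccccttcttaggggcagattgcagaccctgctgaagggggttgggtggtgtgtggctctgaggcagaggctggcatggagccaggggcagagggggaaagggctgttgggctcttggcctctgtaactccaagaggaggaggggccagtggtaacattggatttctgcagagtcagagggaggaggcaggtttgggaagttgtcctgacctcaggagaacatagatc
Vsig4: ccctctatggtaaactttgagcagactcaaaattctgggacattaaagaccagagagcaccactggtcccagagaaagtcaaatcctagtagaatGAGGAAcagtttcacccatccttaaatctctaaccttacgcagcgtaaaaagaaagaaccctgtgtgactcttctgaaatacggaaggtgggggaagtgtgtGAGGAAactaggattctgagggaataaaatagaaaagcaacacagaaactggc
Cd5l: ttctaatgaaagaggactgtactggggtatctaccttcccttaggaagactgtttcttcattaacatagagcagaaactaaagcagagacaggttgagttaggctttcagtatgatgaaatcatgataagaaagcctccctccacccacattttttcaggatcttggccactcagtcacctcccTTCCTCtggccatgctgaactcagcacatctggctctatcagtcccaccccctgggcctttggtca
Marco: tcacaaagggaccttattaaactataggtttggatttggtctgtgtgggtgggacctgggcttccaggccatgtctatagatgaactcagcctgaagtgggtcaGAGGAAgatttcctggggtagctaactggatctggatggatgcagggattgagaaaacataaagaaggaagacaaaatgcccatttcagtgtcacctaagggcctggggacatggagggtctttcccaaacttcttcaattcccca
Mrc1: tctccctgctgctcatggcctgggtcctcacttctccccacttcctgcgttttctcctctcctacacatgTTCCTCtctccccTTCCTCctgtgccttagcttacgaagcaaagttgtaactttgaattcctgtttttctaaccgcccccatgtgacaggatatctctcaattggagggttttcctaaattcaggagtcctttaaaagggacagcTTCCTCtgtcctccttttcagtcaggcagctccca
Mrc1 had 3 matches, Vsig4 had 2, Cd5l and Marco had 1 each and Clec4f had 0. A match of 6 letters is a description of the sequence and not a binding site, and no binding was measured.

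The members spanned a wide range of levels. Per kilobase of exon, Clec4f was the highest at 47.7 in MOCA livers and 43.8 in control livers (mean TMM-scaled CPM per kb), followed by Cd5l at 47.6 and 42.8. Mpeg1, which encodes the pore-forming perforin-2, was next at 29.1 and 29.3 per kb. At the low end, Ccr2 had 0.0591 per kb in MOCA livers and 0.0497 per kb in control livers, Cx3cr1 had 0.0525 and 0.0337, and Gpnmb had 0.0459 and 0.010. All 10 resident genes were detected in all 8 mice, 9 of them above 3 TMM-scaled CPM in every mouse. Which cells held this RNA was not measured.

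**Figure D1:**
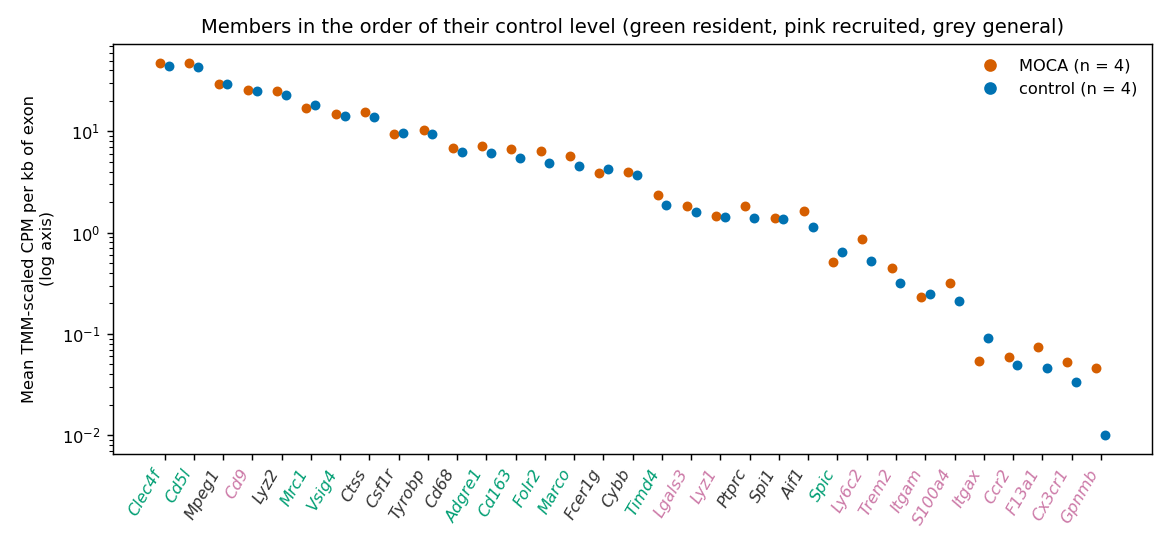
Mean level of each of the 33 members per kilobase of exon (log axis, TMM-scaled CPM per kb), MOCA in orange and control in blue, ordered by control level. Clec4f and Cd5l lead at 42.8 to 47.7 per kb, and Itgax, Ccr2, F13a1, Cx3cr1 and Gpnmb lie under 0.1 per kb in both groups.

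Among resident markers, Clec4f, a C-type lectin that in mice is restricted to Kupffer cells (chromosome 6, 83644542 to 83656116), had 108, 122, 105 and 137 TMM-scaled CPM in MOCA livers, against 121, 111, 101 and 99.5 in control livers. Vsig4, a receptor that binds complement C3 fragments on bacteria (chromosome X, 96247201 to 96293438), had 18.6, 22.7, 20.2 and 23.9 in MOCA livers, against 23.9, 19.1, 19.7 and 17.9 in control livers. For both genes the groups overlapped, with the highest MOCA value in mouse 4 and the highest control value in mouse 1. Clec4f had 0.12 as its log2 fold change (SE 0.10, adjusted p = 0.565, limma), with a 95% interval of 0.94 to 1.26 in fold, and Vsig4 by 0.08 (SE 0.11, adjusted p = 0.743), with 0.90 to 1.25.

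Timd4, a phosphatidylserine receptor that in mice marks long-resident Kupffer cells of embryonic origin, had 4.45, 4.19, 5.38 and 6.23 in MOCA livers, against 5.52, 3.93, 3.39 and 3.30 in control livers. Cd5l, a secreted scavenger protein of tissue macrophages, had 88.3, 93.0, 84.6 and 122 in MOCA livers, against 95.1, 86.3, 77.8 and 89.4 in control livers. Mouse 4 was again the highest MOCA mouse and mouse 1 the highest control mouse, and the groups overlapped for both genes. The log2 fold changes were 0.28 for Timd4 (SE 0.16, adjusted p = 0.386, limma) and 0.14 for Cd5l (SE 0.11, adjusted p = 0.551). Timd4 is the marker that separates old resident cells from newly settled ones, and its interval ran from 0.96 to 1.53 in fold.

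Marco, a scavenger receptor for bacteria and particles, had 8.02, 12.6, 7.45 and 15.7 in MOCA livers, against 9.06, 8.50, 8.39 and 8.88 in control livers. Its 4 control values lay close together (8.71 ± 0.316, SD), whereas the MOCA values were spread (10.9 ± 3.92), with mice 2 and 4 above and mice 1 and 3 below every control value. Adgre1, which encodes F4/80, had 24.1, 21.5, 20 and 28.0 in MOCA livers, against 23.0, 18.2, 20.4 and 18 in control livers. The log2 fold changes were 0.24 for Marco (SE 0.19, adjusted p = 0.546, limma) and 0.22 for Adgre1 (SE 0.11, adjusted p = 0.350). Without MOCA mouse 4 they were 0.06 and 0.13, and without control mouse 1 they were 0.26 and 0.29.

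Folr2, folate receptor beta (chromosome 7, 101839988 to 101857190), was the member with the smallest p. It had 8.34, 7.74, 8.49 and 9.04 in MOCA livers, against 7.79, 6.89, 5.0 and 5.88 in control livers. MOCA mouse 2 lay just under control mouse 1, so the groups overlapped by that pair alone. The log2 fold change was 0.36 (SE 0.12, unadjusted p = 0.0131, adjusted p = 0.175, limma), which did not pass. Cd163, the receptor for haemoglobin bound to haptoglobin, had 30.5, 31.1, 24.4 and 33.4 in MOCA livers, against 29.6, 22.1, 22.1 and 24.8 in control livers (log2 fold change 0.27, SE 0.12, unadjusted p = 0.0423, adjusted p = 0.267, limma). MOCA mice 1, 2 and 4 were above every control mouse, and MOCA mouse 3 was within the control range.

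The remaining resident markers had negative fold changes. Mrc1, the mannose receptor, which in mouse liver is also made by sinusoidal endothelium, averaged 91.2 ± 2.03 in MOCA livers and 97.2 ± 7.25 in control livers (SD; log2 fold change -0.09, adjusted p = 0.551, limma). The 10 sinusoidal endothelial markers summed to 495 to 510.4 in MOCA livers and 522 to 598 in control livers, and their part in the Mrc1 value was not tested. Spic, a transcription factor of iron-recycling macrophages, averaged 0.902 ± 0.192 in MOCA livers and 1.14 ± 0.497 in control livers (log2 fold change -0.14, adjusted p = 0.708, limma), and without control mouse 1 its fold change was -0.0040.

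Counted together, 0 of the 10 resident markers were called in either direction by limma, edgeR or DESeq2 (DESeq2 gave Spic no adjusted p), against 0.666% of all genes tested. At an unadjusted p under 0.05, 2 resident markers were higher and 0 lower, and of all 25 tested members 3 were higher, against 9.42% of all genes tested that were higher and 17.5% in either direction. The median log2 fold change over the resident markers was 0.18, beside 0.01 over all genes tested, and 8 of 10 were positive. This median was 0.05 without MOCA mouse 4, when Clec4f was at 0.04, Vsig4 at 0.03 and Cd5l at 0.03. Without control mouse 1 it was 0.22, when Clec4f was at 0.17, Vsig4 at 0.16 and Cd5l at 0.18. None of the 25 tested members had groups that did not overlap, against 10.5% of all genes tested.

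**Figure D2:**
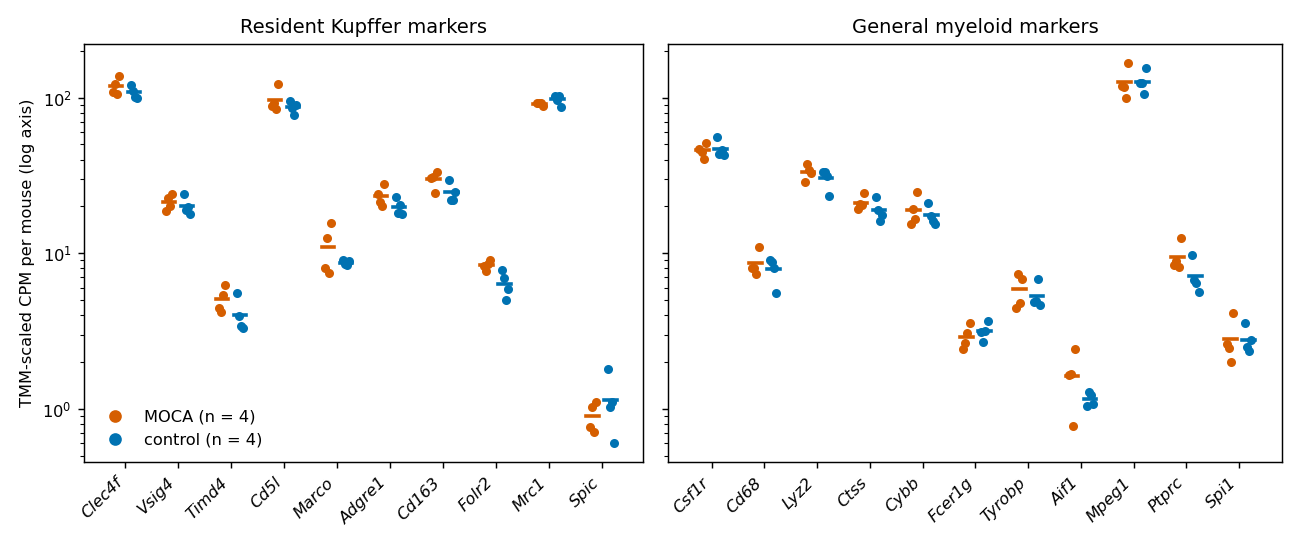
TMM-scaled CPM in each mouse (log axis) for the 10 resident and 11 general myeloid markers, MOCA in orange left of control in blue, with bars at the group means. The groups overlap in all 21 genes. Marco was high in MOCA mice 2 and 4 (12.6 and 15.7), and Spic was highest in control mouse 1 (1.80).

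Resident markers varied together from mouse to mouse within a group. All 10 had their highest control value in control mouse 1, and 9 of 10 had their highest MOCA value in MOCA mouse 4, the exception being Mrc1. The median deviation from the control mean over the 10 genes was 0.44 on the log2 scale in MOCA mouse 4 and 0.01, 0.14 and -0.02 in MOCA mice 1, 2 and 3. In control mice 1, 2, 3 and 4 it was 0.23, -0.02, -0.07 and -0.12. MOCA mouse 4 and control mouse 1 were jointly the highest of their groups for 90.0% of resident markers and 60% of all tested members, against 9.6% of all genes tested. With columns scaled to equal sums, MOCA mouse 4 was the highest MOCA mouse for 19 of 25 members and control mouse 1 the highest control mouse for 18 of 25. This pair of mice was picked from the values of these same markers, so the shares and counts describe the pattern and do not test it.

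The same measure was taken in genes outside the member list. Of 13 further Kupffer genes, 8 had their highest MOCA value in MOCA mouse 4 (61.5%) and 5 their highest control value in control mouse 1 (38.5%), with median deviations of 0.17 and 0.08 in those mice. Of 19 phagocytosis genes and Fc receptors, 13 had their highest MOCA value in MOCA mouse 4 and 13 had their highest control value in control mouse 1, 68.4% each, against 27.8% and 25.1% of all genes tested. Siglec1, the macrophage sialoadhesin, had 50.3, 43.9, 38.8 and 68.2 in MOCA livers, against 53.7, 37.9, 38.4 and 38.9 in control livers. It is 1 of the further Kupffer genes and was named after its values were seen. Slc40a1, another of them, had its lowest MOCA value in MOCA mouse 4 (297). Its highest control value was in control mouse 3 (471). Sinusoidal endothelial markers did not follow: 1 of 10 was highest in MOCA mouse 4 among MOCA mice and 2 of 10 in control mouse 1 among control mice. The summed level of the 8 hepatocyte markers was 75784 in MOCA mouse 4 and 83120.1 to 87846 in the other MOCA mice, and it was 84491 to 100100.1 in control mice; the part of this in the marker pattern was not tested.

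**Figure D3:**
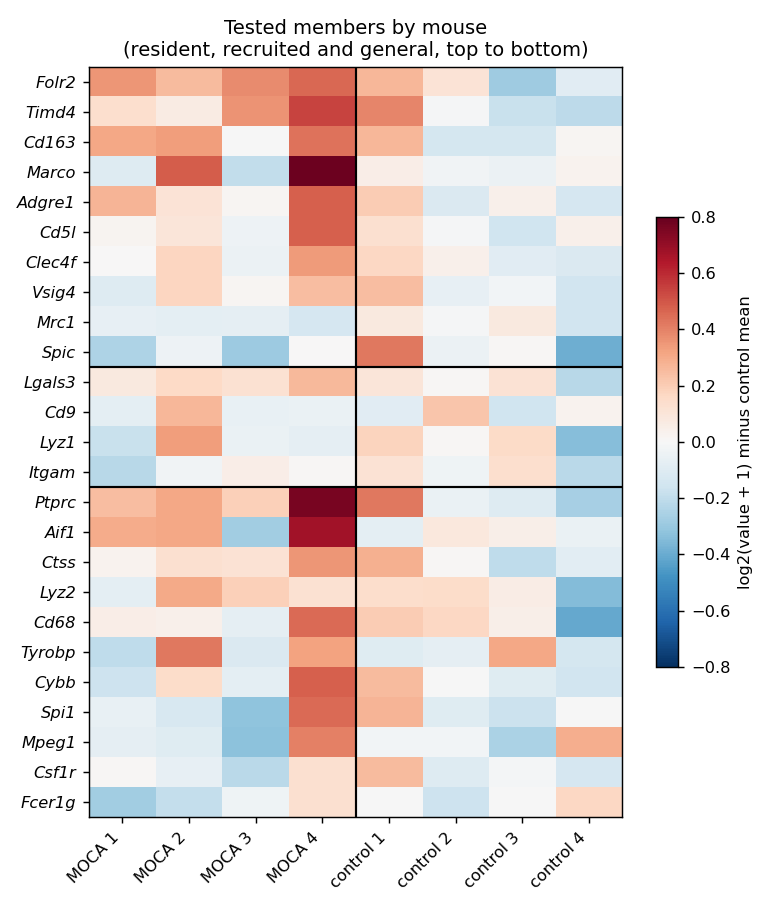
Each of the 25 tested members (rows) in each mouse (columns, MOCA left and control right) as log2(value + 1) minus the control mean, red above and blue below. The column of MOCA mouse 4 is red for most resident and general markers (median 0.44 and 0.41) and that of control mouse 1 is paler red (0.23 and 0.20).

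Markers of recruited monocytes were at the edge of detection. Ccr2, the chemokine receptor that brings monocytes from marrow to tissue, had 0.191, 0.709, 0.454 and 0.244 in MOCA livers, against 0.232, 0.258, 0.494 and 0.360 in control livers, which is 3 to 11 reads per library. Cx3cr1, the fractalkine receptor of patrolling monocytes, had 0.191, 0.129, 0.259 and 0.367 in MOCA livers, against 0.0581, 0.0644, 0.185 and 0.300 in control livers, or 1 to 6 reads. At this depth neither gene reached the minimum for testing, and no difference was detectable.

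Over the 4 libraries of a group, Ccr2 had 25 reads in MOCA livers and 22 in control livers, a scaled ratio of 1.18 with an exact 95% interval of 0.640 to 2.20. That interval covers counting error only and not the spread between mice. F13a1, the A subunit of coagulation factor XIII and a monocyte gene, had 19 and 12 reads (ratio 1.65, 0.760 to 3.72), and the calcium-binding S100a4 had 10 and 7 (ratio 1.49, 0.511 to 4.60). Itgax, which encodes CD11c, had 15 reads in MOCA livers and 26 in control livers (ratio 0.601, 0.296 to 1.18) and was at 0 in MOCA mouse 2. S100a4 was at 0 in control mouse 2.

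Ly6c2, a surface protein of inflammatory monocytes, had 0.445, 0.387, 0.972 and 1.22 in MOCA livers, against 0.465, 0.258, 0.555 and 0.540 in control livers. MOCA mice 3 and 4 were above every control mouse, and MOCA mice 1 and 2 were within the control range. The group sums were 48 and 30 reads (ratio 1.67, counting interval 1.03 to 2.72), and without the filter the adjusted p was 0.469 by limma. Its close relative Ly6c1, which endothelial cells also make, had 11.3, 6.12, 8.81 and 13.3 in MOCA livers, against 5.75, 6.12, 3.09 and 4.50 in control livers; MOCA mouse 2 and control mouse 2 were almost equal, and the other MOCA mice were above every control mouse (log2 fold change 0.88, SE 0.22, adjusted p = 0.0928 by limma and 0.00415 by DESeq2). Of the 50-base windows in Ly6c2 transcripts, 30.8% also occur in Ly6c1 transcripts, so reads of the pair could be split between them in ways the sources used here do not give; the part of Ly6c1 in the Ly6c2 values was not tested.

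**Figure D4:**
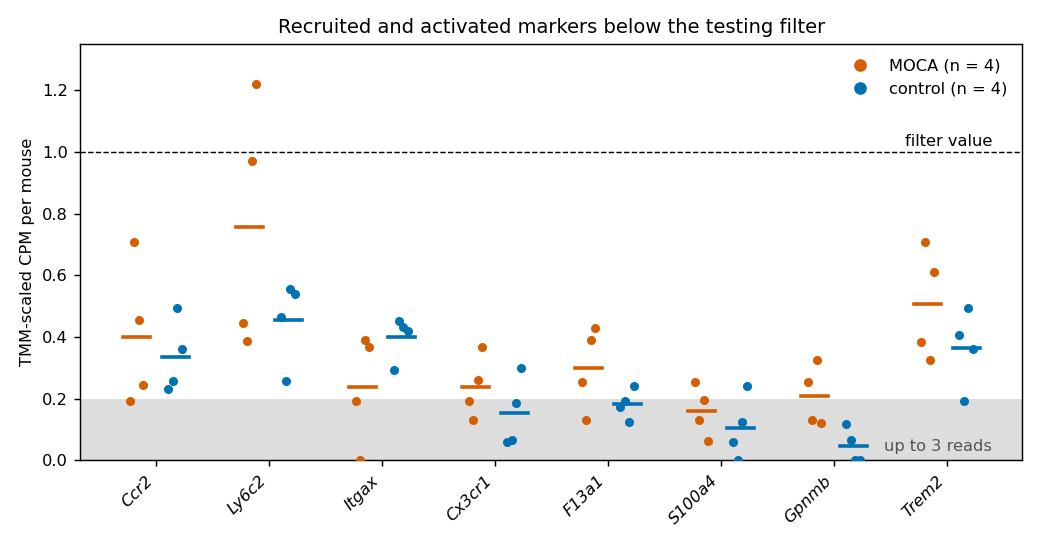
TMM-scaled CPM per mouse for the 8 recruited or activated markers under the testing filter, MOCA in orange left of control in blue, with bars at the means, grey up to the highest value of 3 reads (0.194) and a dashed line at the filter value of 1. Most points lie under 0.6, and 1 point, Ly6c2 in MOCA mouse 4, is above the dashed line.

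Genes of activated and lipid-associated macrophages were also low. Trem2, a lipid receptor of such cells, had 0.382, 0.709, 0.324 and 0.611 in MOCA livers, against 0.407, 0.193, 0.494 and 0.360 in control livers, with overlapping groups. Gpnmb, a transmembrane glycoprotein of the same state, had 0.255, 0.129, 0.324 and 0.122 in MOCA livers, against 0.116, 0.0644, 0 and 0 in control livers. Every MOCA value was above every control value, but the reads behind them were 4, 2, 5 and 2 in MOCA livers and 2, 1, 0 and 0 in control livers. The group ratio was 4.51 with a counting interval of 1.24 to 24.7, and in a limma fit without the filter the adjusted p was 0.276. The lowest MOCA value and the highest control value rest on 2 reads each.

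Of the recruited and activated markers, 4 of 12 listed genes passed the filter on low values. Of these 4, 0 were called in either direction by limma, edgeR or DESeq2, and 0 had an unadjusted p under 0.05 (limma). Over all genes tested the shares were 0.666% called by limma and 17.5% with an unadjusted p under 0.05 in either direction. DESeq2 called 3.61% of the genes it gave an adjusted p. Itgam, the integrin CD11b, had 0.891, 1.16, 1.30 and 1.22 in MOCA livers, against 1.39, 1.16, 1.42 and 0.900 in control livers (log2 fold change -0.05, SE 0.13, adjusted p = 0.889, limma). Lgals3, galectin-3, averaged 2.95 ± 0.215 in MOCA livers and 2.56 ± 0.365 in control livers (SD; log2 fold change 0.15, adjusted p = 0.525, limma). Cd9, a tetraspanin made by many cell types, averaged 31.5 ± 3.93 in MOCA livers and 31.1 ± 3.82 in control livers (log2 fold change 0.02, adjusted p = 0.953, limma). Cd9 was thus the single gene of this group above 4 in any mouse.

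Lyz1 and Lyz2 are tandem lysozyme genes on chromosome 10; in mice Lyz2 is the myeloid form and Lyz1 the form of Paneth cells. Lyz2 had 28.5, 37.5, 34.5 and 32.8 in MOCA livers, against 33.3, 33.4, 31.4 and 23.5 in control livers (log2 fold change 0.13, SE 0.12, adjusted p = 0.605, limma). Lyz1 averaged 1.83 ± 0.468 in MOCA livers and 1.81 ± 0.436 in control livers (SD), and 16.1% of its 50-base transcript windows also occur in Lyz2. Reads from Lyz2 could therefore be counted under Lyz1, and the value of Lyz1 is uncertain.

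The general myeloid genes are shared by resident and recruited cells. Csf1r, the receptor for Csf1 and Il34 on which macrophages depend, had 47.0, 44.7, 40.2 and 51.3 in MOCA livers, against 56.0, 43.4, 46.3 and 42.5 in control livers. Spi1, which encodes PU.1, had 2.61, 2.45, 2.01 and 4.15 in MOCA livers, against 3.54, 2.51, 2.34 and 2.76 in control livers. The groups overlapped for both, and both signs turned with equal column sums (log2 fold change -0.04 for Csf1r, SE 0.10, and -0.01 for Spi1, SE 0.17; adjusted p = 0.892 and 0.977, limma). The intervals of the fold were 0.84 to 1.14 for Csf1r and 0.77 to 1.28 for Spi1.

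Ptprc, the leukocyte antigen CD45, had 8.46, 8.90, 8.10 and 12.5 in MOCA livers, against 9.70, 6.70, 6.42 and 5.64 in control livers. Control mouse 1 alone kept the groups from separating. The log2 fold change was 0.38 (SE 0.16, unadjusted p = 0.0418, adjusted p = 0.267, limma), which did not pass. It was 0.25 without MOCA mouse 4 and 0.52 without control mouse 1. Its interval of 1.01 to 1.67 in fold was the one that reached furthest upward of all 25 members.

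The other general markers had log2 fold changes from -0.09 to 0.25. Mpeg1 averaged 126 ± 28.8 in MOCA livers and 127 ± 20.2 in control livers (SD), and Cybb, the catalytic subunit of the phagocyte NADPH oxidase, 19.0 ± 4.16 and 17.5 ± 2.43. Ctss, the lysosomal protease cathepsin S, averaged 21.2 ± 2.21 and 19.0 ± 2.99, and Cd68, a lysosomal glycoprotein, 8.60 ± 1.63 and 7.87 ± 1.59. The signalling adaptors Tyrobp (5.88 ± 1.47 in MOCA livers and 5.33 ± 0.981 in control livers) and Fcer1g (2.91 ± 0.494 and 3.16 ± 0.391) and the actin-binding Aif1 (1.64 ± 0.681 and 1.16 ± 0.117) differed by less than the SD between MOCA mice. Of the 11 general markers, 0 were called by limma, edgeR or DESeq2 and 1, Ptprc, had an unadjusted p under 0.05 (limma). Over all genes tested, limma called 0.666%, and 17.5% had an unadjusted p under 0.05 in either direction. DESeq2 called 3.61% of the genes it gave an adjusted p. The median log2 fold change of the 11 general markers was 0.11. It was 0.01 without MOCA mouse 4 and 0.18 without control mouse 1.

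**Figure D5:**
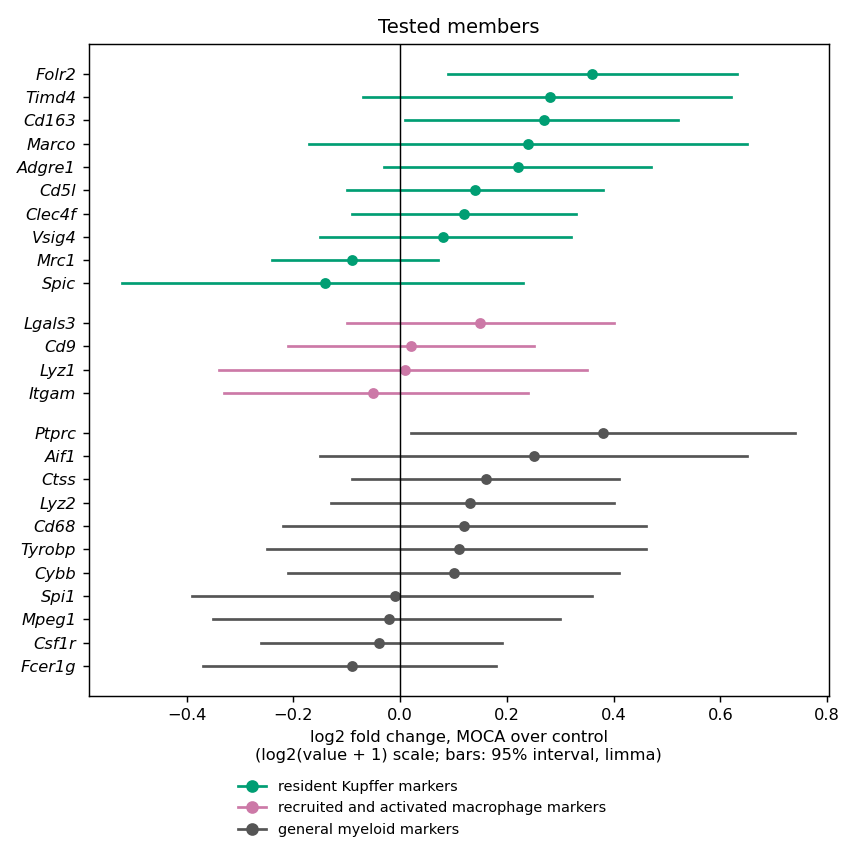
Log2 fold change, MOCA over control, of each tested member with its 95% interval (limma, log2(value + 1) scale), grouped as resident, recruited and general. The interval holds 0 in 22 of 25 genes; Folr2, Cd163 and Ptprc lie above 0 without passing the adjusted threshold.

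The intervals hold on the log2(value + 1) scale and do not bound the fold of low genes: Spic had -0.14 on that scale and -0.34 by edgeR, and Aif1 had 0.25 and 0.50. On that scale all 25 tested members had an upper bound under 2-fold and 20 had one under 1.5-fold. Among resident markers the bounds ran from 0.70-fold (Spic) to 1.57-fold (Marco), among the 4 tested of 12 recruited ones from 0.79-fold (Itgam) to 1.32-fold (Lgals3) and among general ones from 0.77-fold (Spi1) to 1.67-fold (Ptprc).

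Other genes of the macrophage pathway were read from lists written by name, and limma called 0 genes in any of them, against 0.666% of all genes tested. Among 13 tested further Kupffer genes, Fabp7, a fatty acid binding protein, had 1.40, 2.06, 1.81 and 1.28 in MOCA livers, against 0.930, 1.29, 0.741 and 0.900 in control livers (adjusted p = 0.17, limma). The iron exporter Slc40a1, also made by hepatocytes and enterocytes, averaged 306 ± 10.8 in MOCA livers and 378 ± 72.7 in control livers (SD; adjusted p = 0.244). Of 15 transcription factors, Klf4, a factor of monocyte differentiation that other cells also make, averaged 1.13 ± 0.203 in MOCA livers and 1.87 ± 0.314 in control livers. Its groups did not overlap (log2 fold change -0.43, adjusted p = 0.137, limma). This was the 1 factor of 15 without overlap, against 10.5% of all genes tested.

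Among growth factors and niche signals, 0 of 15 were called by limma or edgeR and 2 by DESeq2, which called 3.61% of all genes it gave an adjusted p. Csf1, the main macrophage growth factor, had 13.2, 11.9, 14.8 and 14.3 in MOCA livers, against 14.1, 13.5, 15.6 and 13.9 in control livers, so that MOCA mice 1 and 2 were below every control mouse and MOCA mice 3 and 4 were within the control range. Csf2rb, the shared beta chain of the receptors for GM-CSF, IL-3 and IL-5, had 9.42, 9.35, 8.36 and 11.3 in MOCA livers, against 7.96, 5.47, 5.74 and 7.02 in control livers. Dll1, a Notch ligand, had 6.68, 6.64, 6.93 and 4.34 in MOCA livers, against 8.19, 10.2, 9.26 and 10.3 in control livers. The groups did not overlap for Csf2rb (log2 fold change 0.50, SE 0.13, adjusted p = 0.0973, limma) or for Dll1 (-0.56, SE 0.14, adjusted p = 0.0831), and DESeq2 alone gave both an adjusted p under the threshold (0.0381 and 0.0129).

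In the same list Notch1, a receptor that such ligands bind, averaged 115 ± 7.63 in MOCA livers and 97.7 ± 5.19 in control livers (SD; log2 fold change 0.23, adjusted p = 0.148, limma), again without overlap. Smad4, which carries TGF-beta and BMP signals to the nucleus, averaged 52.5 ± 3.15 in MOCA livers and 60.5 ± 3.91 in control livers (SD; log2 fold change -0.20, adjusted p = 0.201, limma), also without overlap. Of 15 tested niche genes, 2 had an unadjusted p under 0.05 toward higher values and 3 toward lower ones, against 9.42% and 8.05% of all genes tested. Groups did not overlap for 2 that were higher and 2 that were lower, against 10.5% of all genes tested in either direction.

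Chemokines were mostly low. Ccl2, the ligand of Ccr2, stayed between 0.129 and 0.611 in MOCA livers and between 0.322 and 0.432 in control livers. Ccl6, a myeloid chemokine, averaged 5.51 ± 1.06 in MOCA livers and 3.97 ± 0.448 in control livers (SD; log2 fold change 0.38, adjusted p = 0.176, limma), without overlap. Cxcl12, the ligand of Cxcr4 made by stromal and endothelial cells, had 248, 300.2, 271 and 296 in MOCA livers, against 345, 339.5, 377 and 352 in control livers. Every MOCA value of Cxcl12 was below every control value, and the adjusted p was 0.0694 by limma (log2 fold change -0.34, SE 0.08) and 0.00486 by DESeq2. Of 11 tested chemokines, 1 was higher and 1 lower without overlap, against 10.5% of all genes tested in either direction.

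Phagocytosis genes held 0 calls among 19 tested by limma, edgeR and DESeq2. Over all genes tested limma called 0.666%, and DESeq2 called 3.61% of the genes it gave an adjusted p. At an unadjusted p under 0.05 (limma), 2 of the 19 were higher and 1 lower, against 9.42% and 8.05% of all genes tested. The complement components C1qa, C1qb and C1qc, which Kupffer cells make in quantity, had overlapping groups and positive fold changes that did not pass: 0.08 for C1qa (adjusted p = 0.748, limma), 0.25 for C1qb (adjusted p = 0.313) and 0.20 for C1qc (adjusted p = 0.394) on the log2 scale. Cd36, a fatty acid translocase and scavenger receptor that hepatocytes also make, had 136, 56.3, 56.4 and 72.6 in MOCA livers, against 40.0, 55.6, 47.5 and 29.6 in control livers (log2 fold change 0.82, SE 0.26, adjusted p = 0.160, limma). MOCA mouse 1 stood well above the other MOCA mice for Cd36, and the groups did not overlap. Of the 19 tested, 1 was higher and 1 lower without overlap, against 10.5% of all genes tested in either direction. Among 9 listed MHC class II genes 4 were tested, and all 4 had negative fold changes, where 51.1% of all genes tested had positive ones. In the fit without the filter H2-DMa and H2-DMb2 had positive log2 fold changes (0.02 and 0.07), and the other genes below the filter had negative ones. Cd74, the invariant chain, averaged 11 ± 1.96 in MOCA livers and 15.1 ± 1.42 in control livers (log2 fold change -0.43, adjusted p = 0.122, limma).

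Inflammatory mediators of macrophages showed no higher values that passed. Of 12 tested, 0 had an unadjusted p under 0.05 (limma) toward higher values and 2 toward lower ones. Over all genes tested these shares were 9.42% and 8.05%. The 2 were Il1a and Nfkbia, with adjusted p of 0.239 and 0.211 (limma). Il1a averaged 2.50 ± 0.688 in MOCA livers and 3.82 ± 1.08 in control livers, and Il1b, the other interleukin 1 gene, had log2 fold change -0.27 (adjusted p = 0.428, limma). Tnf was at most 0.305 in MOCA livers and 0.193 in control livers. The 15 tested lysosomal genes, which hepatocytes also express at high levels, had a median log2 fold change of -0.07.

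Markers of other blood cells were read beside the myeloid markers. The 8 neutrophil markers with a row summed to 9.65 to 17.5 in MOCA livers and 7.96 to 11.7 in control livers, of which Lcn2, which hepatocytes also make, held 4.47 to 11.2 in MOCA livers and 2.84 to 6.30 in control livers. The neutrophil proteins S100a8 and S100a9 were at most 0.518 in any mouse. The 10 dendritic cell markers summed to 9.80 to 11.4 in MOCA livers and 7.08 to 12.3 in control livers. The T cell markers with a row, 3 of 10, summed to 0.827 to 1.95 in MOCA livers and 1.42 to 1.92 in control livers, and most of that was Cd4. B cell markers, 3 of 8 with a row, summed to 1.29 to 2.26 in MOCA livers and 1.14 to 1.80 in control livers, and the 1 of 8 NK cell markers with a row had 0.827 to 1.04 and 0.420 to 1.22. Il2rg, the shared cytokine receptor chain that NOG mice carry in a mutated form, had 2 to 6 reads per library. Erythroid markers, 7 of 8 with a row, summed to 473 to 525 in MOCA livers and 252 to 443 in control livers. All 4 that were tested had an unadjusted p under 0.05 (limma) toward higher values, against 9.42% of all genes tested. Limma and edgeR called 0 of them, and limma called 0.666% of all genes tested. DESeq2 called 3 of them, and 3.61% of all genes it gave an adjusted p. The part of erythroid markers in the values of Cd163 and Folr2 was not tested. The 10 resident Kupffer markers, Mrc1 among them, summed to 368 to 464 in MOCA livers and 355 to 419.5 in control livers. Sums over lists of different genes do not compare numbers of cells.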

How the data were processed

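RNA came from an RNeasy Mini Kit, per the labels' protocols, and 200 ng per liver went through ribosomal RNA depletion into strand-aware MGIEasy libraries. The submitters' processing notes list Trimmomatic 0.38, Bowtie2, RSEM, edgeR and mm10 without role or order, and no source used here states the strand setting. The authors deposited 1 table of normalised signal per gene. All values (100%) are whole multiples of a fixed step per column within 0.001, and they equal TMM-scaled CPM recomputed from those whole reads (difference 0). All 8 columns matched a sample, and 0 columns of other samples were left aside.

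Groups were compared with limma 3.58.1 (R 4.3.3; lmFit, eBayes with trend) on log2(value + 1), MOCA against control. It covered 12008 genes, 3202 being left out by the filter on low values, with Benjamini-Hochberg adjustment, and it was tested on simulated reads. The whole reads were also tested with edgeR 4.0.16 (quasi-likelihood) and DESeq2 1.42.0. Alternatives were pseudocounts, filters, scalings, eBayes options, a replicate block and leaving out each mouse. Levels per kb use the union of exons in GENCODE M21 (GRCm38). Libraries of a group differed by more than counting error, with chi-square over its degrees of freedom at 13.7 or more for every pair. Intervals on read ratios cover counting error only.

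The members and lists were chosen with earlier results of these data known. The rule for named genes gives per-mouse values for 6 resident, 6 recruited and 4 general markers, for members with an unadjusted p under 0.05 or without overlap, and for called genes or up to 3 of the smallest p in each other list. Members outside it, and Ly6c1, Siglec1, Csf1, Ccl2, Il1b, Tnf, S100a8, S100a9, Smad4, Lcn2 and the C1q genes, were named after their values were seen.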

Additional observations from a re-analysis of the deposited data

Results flagged for a closer look

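Of 66 groups of 4 mice examined, 3 had a mouse far from the others of its group (gap to the nearest mouse, divided by the range, above Dixon's 95% critical value), and chance alone flags about 1 in 20. Mrc1 had 88.2 TMM-scaled CPM in MOCA mouse 4, below 91.9 to 92.7 in the other MOCA mice. Cd9 had 37.4 in MOCA mouse 2, above 29.2 to 29.8 in the other MOCA mice. Tyrobp had 6.79 in control mouse 3, above 4.68 to 4.96 in the other control mice.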

How the results depend on the processing

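No member was called under any setting run, by limma, edgeR or DESeq2, and the lowest adjusted p of any member was 0.115 (Folr2, without control replicate 1). Over all genes, 80 calls became 171 with equal column sums, 30 with the replicate block and 425 with DESeq2, and 28 (without control replicate 3) to 77 with 1 mouse left out. Deviations of same-numbered mice correlated at -0.07 to 0.04 over the genes tested. Whether a shared number marks shared handling was not tested. Of 291 member fold changes under other settings, 285 kept their sign. The exceptions were Lyz1 at -0.0025 (upper quartile), Csf1r at 0.02, Mpeg1 at 0.03 and Spi1 at 0.03 (equal column sums), and Spi1 at 0.0068 (edgeR) and 0.0052 (DESeq2). Of 200 with 1 mouse left out, 183 kept it. The log2 fold changes of the 8 members that turned ran from -0.12 to 0.01 (Itgam), -0.11 to 0.07 (Lyz1), -0.06 to 0.09 (Cd9), -0.09 to 0.05 (Csf1r), -0.02 to 0.19 (Cd68), -0.03 to 0.18 (Cybb), -0.17 to 0.08 (Mpeg1) and -0.17 to 0.09 (Spi1); the cause was not tested. Depth limits the 8 members below the filter, at 0 to 20 reads per library.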
